A study of Mus musculus with 9 samples.

Results

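The 3 libraries numbered replicate 1, 1 from each cell line, were set against the 6 libraries numbered replicate 2 or 3, out of 9 ATAC-seq libraries in all. ATAC-seq marks open chromatin by where a transposase can insert, and its peaks cover promoters and enhancers. The cells were C3H/10T1/2 (CCL-226), an established mouse line of mesenchymal progenitors that can form fat, bone, cartilage and muscle cells, grown in ordinary serum medium without differentiation cues. The WT line had received Cas9 without a guide, and B10 and G7 were Atrx knockouts, each a single clone made with a different guide, so a property of a clone cannot be told apart from the loss of ATRX. Atrx lies on the X chromosome, outside the chromosomes used here, and its loss was not checked in these libraries. The authors report a loss of ATRX protein in their knockout lines by immunofluorescence and immunoblotting. The members were chosen by the replicate number in the label. The labels do not say whether libraries of 1 number share a harvest or a culture, and the dates of preparation are not given in the sources used here, so p-values measure the spread between these libraries, which may be technical.

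Open chromatin answers to the state of a culture. AP-1, a dimer of FOS and JUN family proteins, binds its short motif at many enhancers of fibroblast-like cells and responds to serum, attachment and stress. SRF binds the CArG box at serum-induced and contractile genes, TEAD proteins carry the activity of YAP, which follows cell density, and basic helix-loop-helix proteins bind E-boxes. CTCF and SP or KLF sites are open in most cell types.

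Overlapping or touching peaks of the 9 libraries on chromosomes 1 to 19 were merged into 132893 regions, of which 95142 held a peak in at least 2 of 3 libraries of any line, here called consensus regions. Strength was compared in the 46449 consensus regions with a peak in all 9 libraries, as quantile-normalized log2 fold enrichment (peak over background, the caller's value), with line as a covariate and an adjusted p under 0.05 (limma). By this test 3209 regions were higher in replicate 1 and 4269 were lower, which is 6.91% and 9.19% of those tested. The median difference was 0.43 among the higher and -0.46 among the lower regions, against 0.02 over all tested. Changes of more than 1 log2 unit were few, with 49 higher and 92 lower regions. The counts were smaller without replicate 1 of WT (772 higher and 1917 lower), of G7 (1081 and 2113) or of B10 (1841 and 2975) and without replicate 2 of WT (2026 and 3032). Without replicate 1 of WT, 22.1% of the regions called higher in all libraries and 42.0% of those called lower were still called. In every one of these fits each called region kept its sign. In the full fit 99.9% of higher and 99.6% of lower regions had 1 sign in all 3 lines, so a turned sign was unlikely beforehand.

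An AP-1 motif lay within 100 bases of the summit in 58.2% of the lower and 7.51% of the higher regions, against 22.05% of all tested and 22.4% of all consensus regions. The regions outside promoters with the most negative and most positive differences show this, leaving out windows that overlap an exon and 1 region near Piezo2. Each window of 151 bases is centred on the summit of the region and was read from the plus strand of the mouse reference GRCm38, the assembly that mm10 names, so it may differ from the C3H genome. In the 5 lower windows the capitals mark AP-1 matches (TGANTCA, either strand). They are, in order, chr13:93998198-93998348 near Lhfpl2, chr16:37603552-37603702 near Hgd, chr19:46718232-46718382 near As3mt, chr3:66309686-66309836 near Veph1 and chr5:31936057-31936207 near Fosl2.
Lhfpl2: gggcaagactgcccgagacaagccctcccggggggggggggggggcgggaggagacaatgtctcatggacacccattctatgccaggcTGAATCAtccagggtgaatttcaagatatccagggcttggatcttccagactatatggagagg
Hgd: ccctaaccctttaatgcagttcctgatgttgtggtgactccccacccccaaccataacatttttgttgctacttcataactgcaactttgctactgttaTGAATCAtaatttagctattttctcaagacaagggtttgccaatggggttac
As3mt: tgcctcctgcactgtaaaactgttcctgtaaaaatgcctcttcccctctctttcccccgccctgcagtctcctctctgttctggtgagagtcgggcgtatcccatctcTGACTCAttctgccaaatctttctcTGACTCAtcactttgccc
Veph1: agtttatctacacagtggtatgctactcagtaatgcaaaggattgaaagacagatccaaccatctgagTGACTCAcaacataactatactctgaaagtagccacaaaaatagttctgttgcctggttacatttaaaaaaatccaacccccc
Fosl2: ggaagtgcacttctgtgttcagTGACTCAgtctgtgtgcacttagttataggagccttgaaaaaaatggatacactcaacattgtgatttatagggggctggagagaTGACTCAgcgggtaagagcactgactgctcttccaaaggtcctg
In the 4 higher windows, chr6:85755919-85756069 near Nat8f3, chr4:45478280-45478430 near Shb, chr1:153014553-153014703 near Nmnat2 and chr15:49489027-49489177 near Csmd3, the capitals mark the 6-base words CAGCTG and TGCCAA on either strand. The last window holds neither. These words were among the words with the highest ratio in higher regions and were chosen after that ranking was seen.
Nat8f3: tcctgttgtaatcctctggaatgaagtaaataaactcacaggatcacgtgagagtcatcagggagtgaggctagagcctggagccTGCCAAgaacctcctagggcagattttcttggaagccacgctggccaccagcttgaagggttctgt
Shb: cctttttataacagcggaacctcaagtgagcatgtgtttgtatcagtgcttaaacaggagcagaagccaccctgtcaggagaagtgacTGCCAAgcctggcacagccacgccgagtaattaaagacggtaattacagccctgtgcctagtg
Nmnat2: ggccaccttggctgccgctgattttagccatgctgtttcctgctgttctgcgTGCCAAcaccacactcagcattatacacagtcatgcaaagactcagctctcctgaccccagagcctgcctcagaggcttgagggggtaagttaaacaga
Csmd3: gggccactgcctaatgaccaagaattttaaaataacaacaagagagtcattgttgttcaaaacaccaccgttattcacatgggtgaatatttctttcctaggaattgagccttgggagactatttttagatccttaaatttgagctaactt

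The values in these windows separated the replicate numbers in every line. The region 59.5 kb from the start of Lhfpl2, which encodes a tetraspan membrane protein, had a fold enrichment of 3.03 in WT, 4.56 in B10 and 3.07 in G7 in replicate 1. Its 6 other libraries lay at 9.02, 9.50 and 9.81 (lowest, median, highest), a difference of -1.38 ± 0.14 (SE, adjusted p = 0.00154). The intronic region near Hgd, an enzyme of tyrosine breakdown, read 4.56 in WT, 5.92 in B10 and 4.36 in G7 against 11.7, 12.8 and 14.98 in the others, a difference of -1.38 ± 0.14 (SE, adjusted p = 0.0014). Neither region overlapped between the groups. At As3mt, which methylates arsenic, replicate 1 read 7.81 in WT, 4.36 in B10 and 5.23 in G7 and the others 11.7, 14.8 and 20.02, a difference of -1.36 ± 0.12 (SE, adjusted p = 0.00119). Near Veph1 the values of replicate 1 were 5.21 in WT, 3.43 in B10 and 5.23 in G7, against 8.20, 11.7 and 14.98, a difference of -1.31 ± 0.17 (SE, adjusted p = 0.0027). No value of replicate 1 reached the lowest of the others at either region. An intergenic region on chromosome 18 near Piezo2, a mechanically gated ion channel, read 5.21 in WT, 4.98 in B10 and 4.94 in G7 against 10.4, 13.8 and 15.7, a difference of -1.33 ± 0.10 (SE, adjusted p = 0.00119). The next in order was a region 199.7 kb from the start of Fosl2, itself an AP-1 subunit, at 6.70 in WT, 6.54 in B10 and 4.94 in G7 against 13.1, 14.7 and 18.8, a difference of -1.29 ± 0.12 (SE, adjusted p = 0.00126). All 6 of these regions held at least 1 AP-1 match, beside 7801 of the 27617 tested regions outside promoters, and none overlapped between groups. Where regions were chosen by their difference, here and below, a lack of overlap follows partly from that choice. The share of all tested regions without overlap is not given.

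None of these 4 higher regions outside promoters held an AP-1 match within 100 bases of its summit. Of all 27617 tested regions outside promoters, 7801 held a match. The region 6.49 kb from the start of Nat8f3, which overlaps an exon, had the largest difference of all, with 21.8 in WT, 16.6 in B10 and 13.8 in G7 in replicate 1 and 3.24, 5.02 and 7.27 in the others, or 1.78 ± 0.20 (SE, adjusted p = 0.00197). In an intron of Shb, an adaptor protein of receptor tyrosine kinases, the values were 11.1 in WT, 14.9 in B10 and 12.4 in G7 against 3.18, 5.29 and 6.74, a difference of 1.41 ± 0.23 (SE, adjusted p = 0.00557). For Nmnat2, which makes NAD in neurons, they were 7.55 in WT, 6.20 in B10 and 8.36 in G7 against 2.30, 3.27 and 3.85, or 1.25 ± 0.13 (SE, adjusted p = 0.00146). Every library of replicate 1 lay above every other library at these 3 regions. The region nearest to Csmd3, 697 kb away, ranged from 10.8 to 16.3 against 4.84 to 7.84, a difference of 1.21 ± 0.11 (SE, adjusted p = 0.00126).

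The share of peaks with an AP-1 match within 100 bases of the summit was lower in replicate 1 of each line. In WT it was 19.8% in replicate 1 and 25.9% and 25.2% in replicates 2 and 3. For B10 the shares were 17.5% against 21.5% and 21.1%, and for G7 17.2% against 23.1% and 21.9%. The 3 libraries of replicate 1, at 18.2% ± 1.42 (SD, n = 3), did not overlap the other 6, at 23.1% ± 2.01 (SD, n = 6), and the mean difference within lines was -4.91 percentage points. In an exact two-sided permutation test over the 27 ways to pick 1 library per line this gave p = 0.037, the smallest the design allows, and 0.0972 after adjustment over the 21 measures tested. No measure passed 0.05 after this adjustment.

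Other motifs moved less. The E-box CAGCTG stood at 16.6%, 14.98% and 14.9% of peaks in replicate 1 of WT, B10 and G7 and at 14.1% to 14.7% in the 6 others, without overlap, a mean difference of 1.15 points (exact permutation p = 0.037). Its size rested partly on WT, where the difference was 2.04 points against 0.645 in B10 and 0.776 in G7. The CArG box moved from 1.14% to 1.33% of peaks, the C/EBP palindrome TTGCNNAA from 8.74% to 9.14% and the A tract AAAAAAAA from 4.59% to 5.02%, each with the same smallest exact p of 0.037 and an adjusted p of 0.0972. The SP and KLF site GGGCGG moved from 14.1% to 13.4%, at the same p. The TEAD site GGAATG (difference -0.203 points, p = 0.333) and the RUNX site TGTGGTT (0.00550 points, p = 0.926) did not pass this exact permutation test, and neither did the CTCF core (-0.328 points, p = 0.0741).

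**Figure D1:**
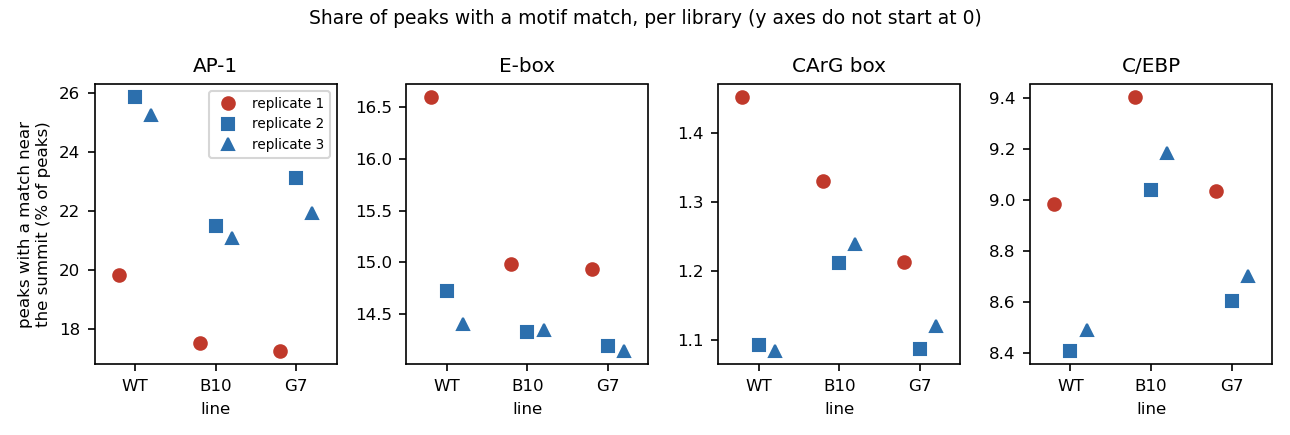
Share of peaks with a motif match within 100 bases of the summit (y axes, percent of peaks, not starting at 0) for the 9 libraries by line (x axis), with replicate 1 as red circles and replicates 2 and 3 as blue squares and triangles. Replicate 1 was the lowest of its line for AP-1 (17.2% to 19.8% against 21.1% to 25.9%) and the highest of its line for the E-box, CArG box and C/EBP motifs.

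Library properties moved with the replicate number too. Peaks of replicate 1 had a median width of 464 to 502 bp against 474 to 531 bp, overlapping between lines (mean difference within lines -27.5 bp, exact permutation p = 0.037), and the mean GC content around their summits differed by -0.218 percentage points (exact permutation p = 0.037). The number of peaks was 77706 to 86650 in replicate 1 and 74643 to 85612 in the others (exact permutation p = 0.111), covering 45.7 to 48.7 Mb and 46.9 to 48.95 Mb. The files give no read depth. In each library 30.6% to 37.1% of fold enrichments under 12 were whole multiples (within 0.01) of 1 step. Read as 1 fragment over the genome-wide background plus 1, the step gives a background of 2.07 to 2.44 fragments in replicate 1 and 2.09 to 2.44 in the others, so this stand-in for depth overlapped. Cut to the same number of top peaks in each library, the AP-1 share differed by -4.89 points, and with fold enrichment corrected for GC content 3068 regions were higher and 3946 lower. The part of peak width in these results was not tested.

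Replicates 2 and 3 of a line shared more covered bases with each other than either did with replicate 1. Their Jaccard index (shared over joint length) was 0.732 to 0.749, against 0.655 to 0.691 for replicate 1 with either of them. Between lines, replicate 1 of WT shared 0.610 with replicate 1 of B10 and 0.647 with that of G7, and B10 shared 0.652 with G7. Pairs of replicate 1 with another number in another line ranged from 0.555 to 0.657 (mean 0.610, 12 pairs), and pairs among numbers 2 and 3 from 0.621 to 0.678 (mean 0.654, 12 pairs), so the ranges overlapped. The lowest index of all was between replicate 1 of B10 and replicate 3 of WT. Pairs that share a library are not independent, and no test was made.

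**Figure D2:**
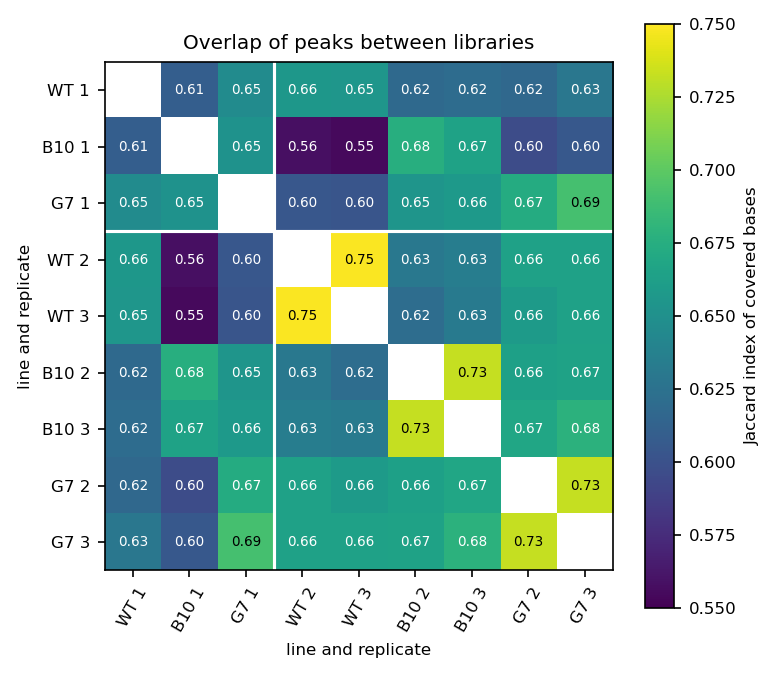
Jaccard index of covered bases (colour and printed value) for each pair of libraries, with replicate 1 of the 3 lines first on both axes and white lines between it and the others. The 3 pairs of replicates 2 and 3 of a line are the highest, at 0.732 to 0.749.

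The differences in strength were graded by the number of AP-1 matches. Outside promoters (regions with no annotated start site within 3 kb) the median difference was 0.04 in 19816 regions without a match, -0.13 in 6636 with 1, -0.24 in 1061 with 2 and -0.26 in 104 with 3 or more. The share called lower went from 6.76% with no match to 23.1%, 39.3% and 45.2%, while the share called higher went from 9.58% to 2.62%, 1.04% and 0%. At promoters the order was the same, with medians of 0.05, -0.08 and -0.22 for 0, 1 and 2 matches and -0.35 in the 17 regions with 3 or more, a group too small to lean on. In WT, B10 and G7 taken alone, regions outside promoters with 2 matches had medians of -0.21, -0.18 and -0.28.

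**Figure D3:**
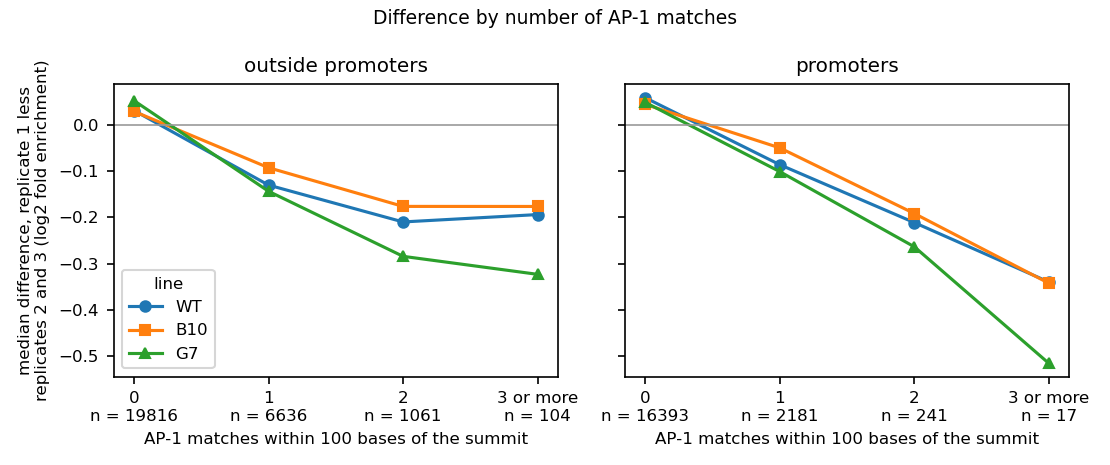
Median difference in log2 fold enrichment, replicate 1 less the mean of replicates 2 and 3 of the same line (y axis), by number of AP-1 matches within 100 bases of the summit (x axis, with the number of regions), outside promoters (left) and at promoters (right), 1 line of points per cell line. The medians of all 3 lines fall from 0 to 2 matches in both panels.

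As a single value per library, regions outside promoters with an AP-1 match stood above those without by 0.02, -0.08 and -0.12 log2 units in replicate 1 of WT, B10 and G7, and by 0.06 to 0.26 in the 6 others, without overlap. The mean difference was -0.21 (exact permutation p = 0.037, adjusted 0.0926 over 15 motifs), and it was -0.22, -0.16 and -0.26 in the 3 lines. Smaller differences at the same smallest p were 0.05 for the CArG box, 0.05 for the E-box, 0.04 for the A tract, -0.03 for TEAD and -0.01 for the SOX site CCTTTGT. The lower median of AP-1 regions held in each of 5 equal bins of mean strength, from -0.19 to -0.08 with a match against -0.00705 to 0.08 without, and in each of 5 bins of GC content, from -0.17 to -0.05 against 0.03 to 0.05. Over all tested regions, promoters included, the centre base of the motif made a small difference, with medians of -0.14 for C or G and -0.12 for A or T. The related CRE site TGACGTCA, with 1 base more between its arms, had a median of 0.05 over 524 regions. Only 122 of these lay outside promoters, and promoters without an AP-1 match had a median of 0.05 too. The value per library was added after the shares had been seen.

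Where a lower region held an AP-1 match, the nearest lay a median of 27 bases from the summit, in regions not called 32. Of other motifs, TEAD sites (in 16.01% of consensus regions) were in 21.4% of lower, 14.9% of higher and 15.5% of all tested regions. The E-box CAGCTG showed the opposite order, at 12.6%, 20.2% and 15.1%, and the CArG box likewise, at 0.773%, 1.90% and 1.25%. CTCF cores were scarce in both called groups, at 1.92% and 3.96% against 6.53%. Promoters made up 21.8% of lower regions (95% Wilson interval 20.6 to 23.1) and 35.1% of higher ones (33.4 to 36.7), against 40.5% of all tested. Of 1761 6-base words held by at least 2% of regions outside promoters, GACTCA led in the lower regions (56.7% against 29.8% of all), and CAGCTG in the higher ones (21.6% against 16.1%). TGCCAA was in 24.8% of higher regions against 18.9%.

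The 3 lines moved together. The differences of WT and B10 correlated across regions with Pearson's r = 0.517, those of WT and G7 with 0.588 and those of B10 and G7 with 0.513 (n = 46449 regions, which share base composition and are not independent). No region showed a difference that depended on the line in limma's F test of the interaction (0 at an adjusted p under 0.05, lowest 0.469), and 3788 regions, or 8.16%, had an unadjusted p under 0.05. Nor did any when both knockout clones were set against WT (0, lowest adjusted p 0.389, 3695 at an unadjusted p under 0.05). Each line has 1 library of replicate 1, so these tests have little power and cannot show that the lines do not differ. Called regions lay on every chromosome, from 5.25% to 8.66% higher and from 7.43% to 10.9% lower.

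Of 13389 tested regions that reach within 3 kb of the start of a protein-coding gene, 786 were higher (5.87%) and 393 lower (2.94%). The largest rise was at Sgk1, a kinase induced by serum and glucocorticoids, in the region chr10:21930507-21931383, 2518 bp from its start. Replicate 1 read 10.7 in WT, 15.6 in B10 and 13.99 in G7 and the others 3.49, 6.39 and 11.7, a difference of 1.18 ± 0.19 (SE, adjusted p = 0.00561). WT replicate 1 lay below the highest of the other 6, so the groups overlapped. At Abra, an actin-binding activator of SRF signalling, the region 111 bp from the start (chr15:41869347-41870060) read 10.3 in WT, 9.01 in B10 and 6.40 in G7 against 3.52, 4.57 and 5.33, a difference of 0.98 ± 0.15 (SE, adjusted p = 0.00434). Jam2, an adhesion protein of cell junctions, read 8.70 in WT, 10.2 in B10 and 7.65 in G7 against 2.84, 4.63 and 6.03, a difference of 1.02 ± 0.16 (SE, adjusted p = 0.0046). At both genes all 3 libraries of replicate 1 lay above the 6 others. St6gal1, which adds sialic acid to glycans, differed by 0.97 ± 0.13 (SE, adjusted p = 0.00303), and Rnase6, an antimicrobial ribonuclease, by 1.05 ± 0.16 (SE, adjusted p = 0.00488). The other 5 were Nynrin (1.16), Dennd1a, an exchange factor of endocytosis (1.04), Pacs2, a sorting protein (0.96), Sobp (0.92) and Cfap45, a protein of cilia (0.91), with adjusted p from 0.00244 to 0.00959. None of the 10 held an AP-1 match near its summit, and neither did 16393 of the 18832 tested promoter regions, counting starts of any gene. Sgk1 and Pacs2 were the 2 that overlapped.

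Of the 10 promoter regions that fell most, 9 held an AP-1 match, while 16393 of the 18832 tested promoter regions held none. At Met, the receptor of hepatocyte growth factor, the region chr6:17549462-17550387 (2908 bp from the start, 2 matches) read 5.23 in WT, 4.22 in B10 and 4.24 in G7 against 8.10, 9.18 and 11.5, a difference of -1.001 ± 0.09 (SE, adjusted p = 0.00126). Fgf7, a growth factor made by mesenchymal cells for epithelium, read 3.99 in WT, 3.47 in B10 and 2.83 in G7 against 6.19, 7.12 and 9.58, a difference of -1.05 ± 0.12 (SE, adjusted p = 0.00187). For Col12a1, a collagen found along fibrils, the values were 7.42 in WT, 7.76 in B10 and 6.55 in G7 against 12.03, 13.8 and 18.7, or -0.99 ± 0.10 (SE, adjusted p = 0.00163). All 3 genes showed no overlap between the groups. Itgbl1, an integrin-like secreted protein, differed by -0.96 ± 0.14 (SE, adjusted p = 0.00383). Cd9, a tetraspanin whose region chr6:125492841-125493549 was the one without a match, read 1.99 to 3.54 against 4.56 to 6.93, a difference of -1.07 ± 0.14 (SE, adjusted p = 0.0027). Fam13b (-1.15), the olfactory receptor gene Olfr456 (-1.10), Stac2 (-0.98), the homeobox gene Msx3 (-0.91) and Prrc2b (-0.89) made up the rest, with adjusted p from 0.00197 to 0.0137. In all 10 the 3 values of replicate 1 lay below the 6 others, and the distance to the coding start was 1207 to 3320 bp. These regions were picked as the largest falls, so their separation follows partly from the choice.

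**Figure D4:**
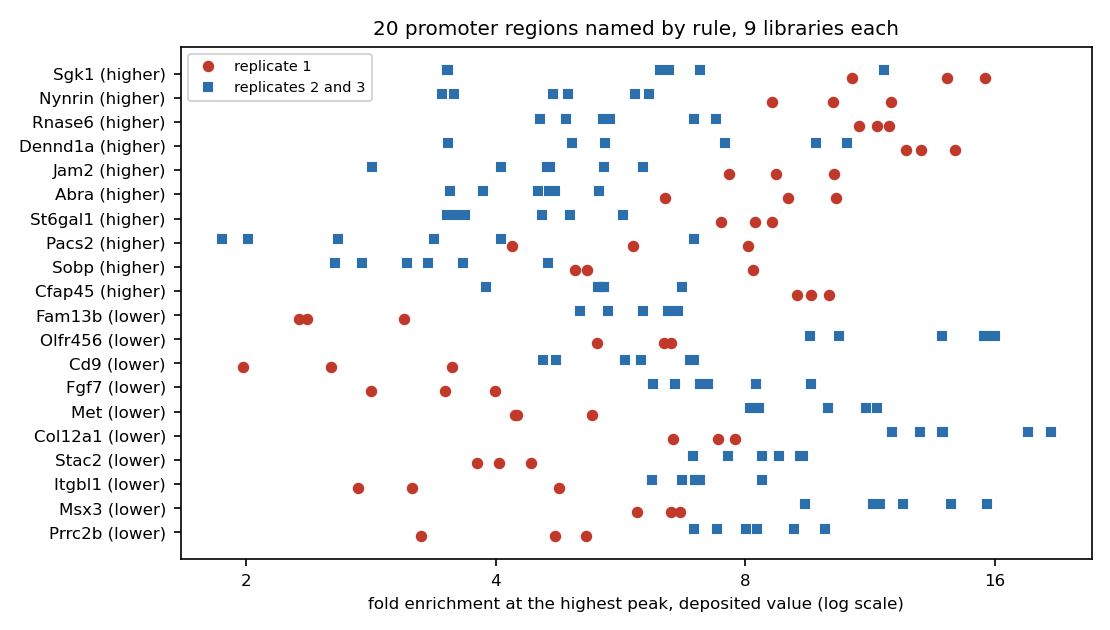
Deposited fold enrichment at the highest peak (x axis, log scale) of the 10 promoter regions with the largest rise and the 10 with the largest fall (y axis), for the 3 libraries of replicate 1 (red circles) and the 6 others (blue squares). The red and blue points of a gene do not overlap except at Sgk1 and Pacs2.

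Counted by nearest protein-coding start, where 9.19% of all tested regions were lower and 6.91% higher, and a count favours genes with many regions, the genes with the most lower regions were Sox9, the master factor of cartilage (10 of 46 tested regions), the adhesion protein gene Tns3 (9 of 38), the growth regulator Myc (8 of 50), Trp63, a factor of epithelium (8 of 14), and Angpt1, a ligand of endothelial cells (7 of 22), the last tied with others. At Trp63 the lower regions differed by -0.87 to -0.18 and 3 of the 8 held an AP-1 match. At Sox9, 7 of 10 did. Other regions of these genes were higher, 6 at Sox9, 4 at Tns3, 5 at Myc, 1 at Trp63 and 1 at Angpt1, so all of these loci moved both ways. The most higher regions were near Sept9, a septin of the cytoskeleton (7 of 29, beside 4 lower). It was followed by Asap1 (6 of 39, beside 7 lower), Pde4d, which breaks down cyclic AMP (6 of 34, beside 2 lower), and Sox9. Tied with others came the matrix protease Adamts5 (5 of 36, beside 4 lower). Among these higher regions, those near Sept9, Asap1, Sox9 and Adamts5 held no AP-1 match and 1 near Pde4d did, where 22.05% of all tested regions did.

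By presence alone, 424 of 95142 consensus regions (0.446%) held a peak in all 6 libraries of replicates 2 and 3 and in none of replicate 1. The consensus rule cannot hold the reverse, since a region with peaks in replicate 1 alone has at most 1 per line, so that direction was counted among all 132893 merged regions, where 641 (0.482%) held a peak in all 3 of replicate 1 and none of the others. Both counts depended on the setting, and their order turned when a −log10 q of at least 10 was asked of the peaks, with 137 absent regions and 69 only in replicate 1. Without replicate 1 of WT they were 846 and 1830, of B10 815 and 1129, and of G7 813 and 1480, and without replicate 2 of B10 the second was 1029. AP-1 matches were in 244 of the 424 absent regions (57.5%) and in 28 of the 641 (4.37%) found only in replicate 1, beside 22.4% of consensus regions. The E-box CAGCTG was in 23.4% of the latter, beside 14.7% of consensus regions. Shares over all merged regions are not given. Of the 641, 6.55% reached within 3 kb of a protein-coding start. Of the absent regions 23.1% were promoters and 40.1% intergenic, against 30.9% and 32.2% of all consensus regions. This promoter share counts starts of any gene, so it cannot be set against the 6.55%. Both kinds were weak peaks, with a median percentile of 32.6 in the 6 libraries for the first and of 20.1 in replicate 1 for the second (all consensus regions, 53.1), and how far a missing peak lay under the caller's threshold cannot be read from the lists.

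The absent regions with the strongest peaks lay near genes of varied function. Ranked by the percentile of −log10 q within the library, the first was chr11:86602236-86602603, at a start site of Vmp1, an autophagy gene, with a fold enrichment of 6.91 to 12.1 in the 6 libraries. Others lay near Tbx21, a factor of T cells (8.36 to 12.1), Ang2, a secreted ribonuclease (11.4 to 13.4), Nf2, the merlin tumour suppressor of the Hippo pathway (7.15 to 10.8), Ano6, a lipid scramblase (3.74 to 4.76), Specc1 (3.69 to 5.15), Rai14 (2.52 to 2.97), Aldh4a1 (5.48 to 8.01), Il17b (5.01 to 7.36) and Gm20481 (4.91 to 8.25). Of the regions seen only in replicate 1, the first in this order lay near Slit2, a guidance cue (14.97, 14.9 and 11.3 in WT, B10 and G7), and others near Arhgef3, Lpin3, Cysltr2, Orc5, Tacc2, Ppp1r21, Fas, Dtna and Trp53inp2. Within single lines, out of 95142 consensus regions, 7954 in WT, 6426 in B10 and 6099 in G7 had a peak in both other replicates and none in replicate 1. WT and B10 shared 1371 of them (17.2% of the WT and 21.3% of the B10 regions), WT and G7 1456 (18.3% and 23.9%), and B10 and G7 1201 (18.7% and 19.7%). Of the 132893 merged regions, those seen only in replicate 1 of their line numbered 12670 in WT, 12774 in B10 and 10084 in G7. WT and B10 shared 1847 of these (14.6% and 14.5%), WT and G7 2462 (19.4% and 24.4%) and B10 and G7 2073 (16.2% and 20.6%). The sharing to be had between unrelated lists is not given, and these overlaps were not tested.

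The genes that make AP-1 showed no difference past the test at their own start sites. The list of serum response genes and AP-1 factors had 21 of 219 regions (9.59%) higher and 23 (10.5%) lower, beside 6.91% and 9.19% of all regions, with a median difference of -0.00707 against 0.02 over all. Of its 45 promoter regions, 3 were higher and 1 was lower, where 5.87% and 2.94% of all promoters were. At the start of Fos, the founding AP-1 subunit, replicate 1 read 5.30 in WT, 5.34 in B10 and 4.63 in G7 and the others 5.14, 5.52 and 5.68, a difference of -0.05 ± 0.10 (SE, adjusted p = 0.764). A region 2263 bp from the start was higher, at 2.11 in WT, 2.47 in B10 and 2.16 in G7 against 1.53, 1.77 and 1.93, or 0.36 ± 0.06 (SE, adjusted p = 0.00491). At the start the groups overlapped, and at the second region they did not. The start of Jun had 6.90 in WT, 6.52 in B10 and 5.95 in G7 against 6.67, 6.999 and 7.26, a difference of -0.06 ± 0.09 (SE, adjusted p = 0.675), and Junb, Fosl1, Fosl2, Atf3 and Egr1 differed at theirs by 0.05, 0.25, -0.11, 0.04 and 0.05, none past the test (adjusted p from 0.077 to 0.801). Ranges below give fold enrichment in replicate 1 against the 6 others. Ier2, an immediate early gene, was higher at a region 2660 bp from its start (2.80 to 3.09 against 1.90 to 2.42, difference 0.49 ± 0.08, adjusted p = 0.0051). Its start leaned the other way (-0.27 ± 0.09, adjusted p = 0.0818), as did its further promoter regions (-0.12 and -0.18), none past the test. Spry4, a brake on growth factor signalling, was higher at its start (18.8 to 19.5 against 14.3 to 16.9, difference 0.28 ± 0.06, adjusted p = 0.02). Dusp5, a phosphatase of ERK, was lower 3088 bp from its start (3.30 to 3.77 against 4.17 to 5.74, difference -0.39 ± 0.09, adjusted p = 0.0224). The start of Dusp5 leaned the other way (0.19 ± 0.08, adjusted p = 0.125) without passing the test.

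Lists that bear on the state of a culture, namely contact and tension, growth and hormones, had called regions in both directions, with medians over their tested regions from -0.06 to 0.05 for all 20 lists. Over all tested regions 6.91% were higher and 9.19% lower, and over all promoters 5.87% and 2.94%. The promoters called were 2 higher and 0 lower of 26 for SRF targets, 2 higher and 0 lower of 36 for YAP and TEAD targets, 2 higher and 0 lower of 35 for the cell cycle, 1 higher and 1 lower of 22 for growth arrest and p53, 4 higher and 1 lower of 33 for glucocorticoid and circadian genes and 4 higher and 2 lower of 26 for matrix and TGF-beta targets. SRF targets had 14 of 135 regions (10.4%) higher and 19 (14.1%) lower, and their promoters that passed were those of Myh9, non-muscle myosin (6.36 to 7.70 against 4.35 to 5.65, difference 0.61 ± 0.11, adjusted p = 0.0079), and Pdlim7, an actin-binding adaptor (5.92 to 7.66 against 4.40 to 5.64, difference 0.47 ± 0.10, adjusted p = 0.015), both higher. YAP and TEAD targets had 20 of 254 regions (7.87%) higher and 32 (12.6%) lower, with higher promoters at the kinase Nuak2 (5.31 to 6.54 against 3.79 to 5.09, difference 0.40 ± 0.09, adjusted p = 0.0193) and at Tead4 itself (11.98 to 13.4 against 8.87 to 11.7, difference 0.33 ± 0.07, adjusted p = 0.0158). The groups did not overlap at any of these 4 promoters, which were named because they passed the test. Cell cycle genes had 5 of 77 regions (6.49%) higher and 3 (3.90%) lower, including a higher region at Rrm2, a subunit of ribonucleotide reductase (6.65 to 9.37 against 4.64 to 7.06, difference 0.54 ± 0.10, adjusted p = 0.0102), whose groups overlapped. Growth arrest and p53 targets had 5 of 132 regions (3.79%) higher and 12 (9.09%) lower, with a lower promoter at Btg2, an antiproliferative gene (5.72 to 6.22 against 7.48 to 10.1, difference -0.48 ± 0.10, adjusted p = 0.0123). Glucocorticoid and circadian genes had 11 of 98 regions (11.2%) higher and 8 (8.16%) lower, where the glucocorticoid target Fkbp5 was lower (4.97 to 5.90 against 6.38 to 10.5, difference -0.47 ± 0.11, adjusted p = 0.023) and the clock gene Per2 higher (7.52 to 8.70 against 5.24 to 6.56, difference 0.46 ± 0.09, adjusted p = 0.0133), beside Sgk1 above. Neither of these 2 overlapped. Matrix and TGF-beta targets had 22 of 219 regions (10.05%) higher and 23 (10.5%) lower, with higher regions at Col3a1 (4.598 to 5.44 against 2.82 to 4.34, difference 0.63 ± 0.14, adjusted p = 0.0191) and Sparc (5.95 to 6.69 against 3.86 to 5.03, difference 0.56 ± 0.09, adjusted p = 0.00525) and a lower one at Itgb5 (4.15 to 5.06 against 5.38 to 7.11, difference -0.37 ± 0.10, adjusted p = 0.0329).

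The stress and metabolic lists gave, as higher and lower regions of those tested, 7 and 8 of 107 (6.54% and 7.48%) for hypoxia and glycolysis, 4 and 4 of 55 (7.27% and 7.27%) for amino acid and ER stress, 2 and 3 of 38 (5.26% and 7.89%) for heat shock, 1 and 4 of 49 (2.04% and 8.16%) for oxidative stress, 3 and 4 of 46 (6.52% and 8.70%) for sterol synthesis, 8 and 12 of 111 (7.21% and 10.8%) for NF-kB and inflammation and 1 and 0 of 28 (3.57% and 0%) for interferon response, beside 6.91% and 9.19% of all tested regions. Among the 3 promoters of each list with the largest difference, Aldoa, a glycolytic enzyme (8.27 to 10.2 against 6.67 to 8.82, difference 0.29 ± 0.08, adjusted p = 0.0375), Lif, a cytokine (12.8 to 14.5 against 9.39 to 12.8, difference 0.30 ± 0.08, adjusted p = 0.0377), and Ifit2, an interferon-induced gene (4.94 to 5.59 against 3.14 to 5.45, difference 0.47 ± 0.11, adjusted p = 0.0195), passed the test, each higher in replicate 1 with overlapping groups. None of the other leading promoters did. No tested promoter of the amino acid and ER stress, heat shock, oxidative stress or sterol lists passed.

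Genes of the fates open to these cells had 9 of 116 regions (7.76%) higher and 15 (12.9%) lower for fat, 14 and 22 of 154 (9.09% and 14.3%) for cartilage, 3 and 8 of 56 (5.36% and 14.3%) for bone and 3 and 5 of 39 (7.69% and 12.8%) for muscle, beside 6.91% and 9.19% of all tested regions. The promoters called were 1 higher and 1 lower of 18 for fat, 0 higher and 1 lower of 19 for cartilage, 0 higher and 1 lower of 15 for bone and 1 higher and 1 lower of 10 for muscle. At Pparg, the master factor of fat cells, a region 193 bp from a start read 6.13 in WT, 7.20 in B10 and 5.51 in G7 against 7.70, 10.8 and 12.99, a difference of -0.69 ± 0.10 (SE, adjusted p = 0.00406), and the groups did not overlap. Sox6 (7.16 to 13.4 against 13.97 to 16.6, difference -0.61 ± 0.14, adjusted p = 0.0225), Myod1 (9.65 to 15.1 against 13.1 to 17.1, difference -0.35 ± 0.11, adjusted p = 0.0494) and Bglap2, an osteocalcin gene (8.88 to 11.9 against 10.8 to 13.8, difference -0.28 ± 0.07, adjusted p = 0.0272), were lower and Mef2c (6.81 to 8.22 against 2.93 to 6.25, difference 0.64 ± 0.19, adjusted p = 0.0479) was higher. Bglap2 has near-identical neighbouring copies, so its peak is uncertain. Of 15 mesenchymal progenitor markers, 11 had a peak within 1 kb of a start in all 9 libraries, among them Pdgfra, Prrx1, Twist1 and Col1a1, and 3 (Thy1, Nt5e and Cd34) had none in any library. A list of 18 progenitor markers had 10 of 127 tested regions (7.87%) higher and 13 (10.2%) lower. Of its 22 promoter regions 3 were higher and 1 lower, where 5.87% and 2.94% of all promoters were. Thy1 had a higher region 1678 bp away (10.4 to 13.1 against 5.94 to 9.75, difference 0.60 ± 0.09, adjusted p = 0.00444) and Cd34 a lower one at 2835 bp (4.94 to 9.21 against 8.59 to 12.7, difference -0.44 ± 0.11, adjusted p = 0.0316).

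Markers of other cell types were mostly closed. Of 22 listed on these chromosomes, 14 had no peak within 1 kb of a start in any library, among them Epcam, Cdh1, Ptprc, Cd3e and Sox2, and 3 had one in all 9 (Pecam1, Tek and Tubb3). Each library of replicate 1 had a peak at 4 to 5 of them and each other library at 5 to 7. The list had 4 of 60 tested regions (6.67%) higher and 6 (10.0%) lower, beside 6.91% and 9.19% of all tested regions. Of its 6 promoter regions, 0 were higher and 2 lower. Regions near Krt5 (4.27 to 6.34 against 6.06 to 11.4, difference -0.64 ± 0.10, adjusted p = 0.00483) and Pecam1 (5.59 to 8.71 against 7.39 to 12.99, difference -0.46 ± 0.10, adjusted p = 0.0141) were lower in replicate 1, both with overlapping groups, and the part of other cells in the results was not tested. ATAC-seq on bulk cells cannot tell fewer cells of a type from weaker opening in each cell.

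**Figure D5:**
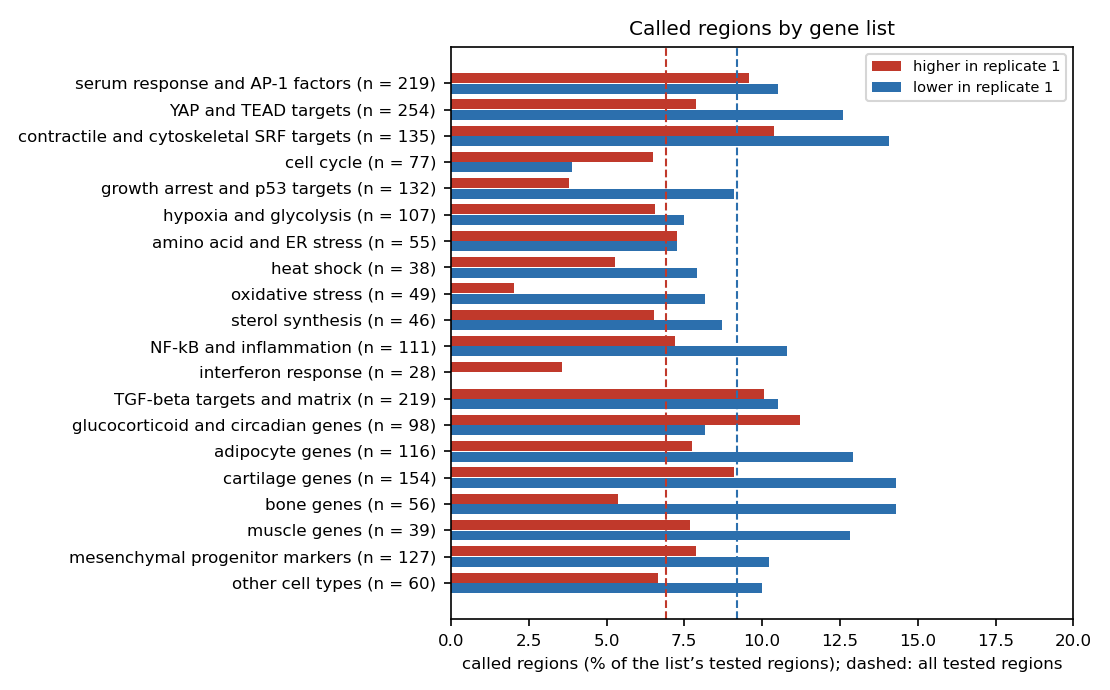
Percent of each list's tested regions called higher (red) or lower (blue) in replicate 1 (x axis, bars from 0), by gene list with the number of regions tested (y axis), with dashed lines at the share of all tested regions. The lists lie on both sides of the lines, from 2.04% to 11.2% higher and from 0% to 14.3% lower.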

How the data were processed

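Each of the 9 ATAC-seq libraries had its own peak list. The authors aligned paired-end reads to mm10 with Rsubread and called peaks per replicate, without pooling, with MACS2 in paired-end mode. The deposited lists give a fold enrichment, a ratio of signal over background, with −log10 values of the p-value and q-value, and whether an input control entered the ratio is not clear from the sources used here. Read counts were not analysed here and depth is unknown.

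The members and gene lists were chosen with earlier results of these data known. Peaks on chromosomes 1 to 19 were merged. The highest peak of a region gave its log2 fold enrichment, quantile-normalized and tested in limma 3.58.1 (R 4.3.3) with empirical Bayes, a mean trend, line as covariate and Benjamini-Hochberg adjustment, on the regions with a peak in all 9 libraries. Library measures were compared by exact two-sided permutation within lines (27 picks). The closest protein-coding start of GENCODE M21 named a region, and promoters reach 3 kb either side of a start. Matches to 15 motifs were counted on both strands within 100 bases of the summit in GRCm38, the CTCF core, CArG box and NF-kB by name. No 2 libraries shared over 0.382% of identical peaks. The test was checked on simulated data. Python 3.11.15, pandas 2.3.3 and samtools 1.23.1 were used. Alternatives were other normalizations, filters, peak thresholds and each library left out.

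Named regions were the 10 strongest called by presence in each direction, the 10 promoter and 5 other regions with the largest difference in each direction past the test and of 1 sign in all 3 lines, the 5 genes with most called regions in each direction, and the 3 promoters of each list with the largest difference. Regions only in replicate 1, the motif strength, the ranking of 6-base words, and the windows, Fosl2 and the promoters of AP-1 genes described singly were added after values were seen. 1 of the named regions outside promoters is not reported here.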

Additional observations from a re-analysis of the deposited data

Results flagged for a closer look

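In some measures replicate 1 lay above both other libraries of 1 line and below both of another, and these differences between lines were not tested. The share of peaks with a match, in percentage points of replicate 1 less the others, differed for TEAD (0.122 in WT, -0.495 in B10, -0.236 in G7), RUNX (0.302 in WT, -0.459 in B10, 0.174 in G7), CRE (0.0256 in WT, -0.00740 in G7), NF-kB (-0.0379 in WT, -0.0823 in B10, 0.0110 in G7) and FOX (-0.0342 in WT, 0.0949 in B10, -0.0222 in G7). The background in fragments differed by -0.217 in WT, 0.198 in G7. The strength of regions with a match, in log2 units, differed for RUNX (-0.0293 in B10, 0.00591 in G7), SP and KLF (-0.0229 in WT, -0.0103 in B10, 0.00935 in G7) and FOX (-0.00529 in WT, 0.0213 in B10, 0.00822 in G7). Among the 6 libraries of replicates 2 and 3, none of 38 measures had a library that stood apart by Dixon's criterion.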

How the results depend on the processing

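No paired analysis was possible by replicate number, because the replicate number is itself what is compared. Libraries were matched by line instead. Line entered the fit as a covariate, and the exact permutations were made within lines. The count of regions that differed in strength depended on the settings, and in all but the percentile fit no region called here was called in the other direction. By percentile of −log10 q 6232 regions were higher and 6810 lower (8 and 1 regions turned direction), and without the line as covariate 545 and 1208. Leaving out 1 library gave 772 to 2538 higher and 1917 to 3719 lower regions, which are fits on fewer samples, with the lowest counts without replicate 1 of WT (772 and 1917), then of G7 (1081 and 2113). Without replicate 1 of B10 the counts were 1841 and 2975, and without replicate 2 of WT 2026 and 3032. In each of these 9 fits every region called in all libraries kept its sign, which was likely beforehand. From 22.1% to 72.5% of the higher and from 42.0% to 80.9% of the lower regions were still called. Median centring gave 4563 and 4515, and no filter 2448 and 3648 of 95142. Of 30 named regions, 3 lost the test without the filter, 3 without the line covariate and 2 without replicate 1 of WT. By presence, a −log10 q of at least 10 on the side with peaks left 137 absent regions and 69 found only in replicate 1. Leaving out 1 library gave 488 to 846 and 680 to 1830, since fewer libraries must then agree. The counts moved most without replicate 1 of WT (846 and 1830), B10 (815 and 1129) or G7 (813 and 1480), and without replicate 2 of B10 the second was 1029. The AP-1 share differed by -5.49 to -4.51 points and the E-box share by 0.710 to 1.41 when 1 library was left out. Small differences that did not pass the exact test changed sign, and over the libraries left out ranged from -0.143 to 0.238 points for RUNX, -0.00253 to 0.0151 for CRE, -0.00343 to 0.0852 for SOX, -0.0282 to 0.0364 for FOX (-0.00581 with equal peak numbers) and -1.37 to 0.0366 Mb for the covered length. The cause of these changes was not tested.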
